A study of Arabidopsis thaliana with 9 samples.

Results

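The pectin methylesterase genes of Arabidopsis thaliana and the inhibitors of these enzymes were examined in germinating seeds of mutants that lack a NAC transcription factor. The genes were chosen by name alone, as all genes of the authors' deposited table called PME or PMEI followed by a number. This gave 66 of the 33557 genes in the table, 64 named PME and 2 named PMEI. The 3 genotypes were the wild type Col-0 (WT), the loss-of-function mutant nac25 and the loss-of-function mutant nac1L, each represented by 3 biological replicates. Portions of 20 mg of whole seeds were imbibed on agarose plates and collected for RNA after 12 h. The labels describe neither the kind of lesion in the mutants nor the age of the seed lots. Folds and q-values of single genes come from the authors' deposited table, in which genotypes are compared in pairs and no value for a library or a genotype is listed.

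Pectin methylesterases remove methyl groups from homogalacturonan, the main pectin of the primary wall, which is secreted in a highly methylated form. The freed acid groups can bind calcium and stiffen the wall, or open the polymer to polygalacturonases and pectate lyases, which cut it. Many of these enzymes are made with an inhibitor-like region ahead of the catalytic domain that is cut off before the enzyme reaches the wall. Separate inhibitor proteins bind the mature enzymes in the wall. In seeds, pectin methylation has been linked to the softening of the endosperm and testa that the radicle must break, to growth of the embryo and to the release of seed coat mucilage.

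Levels, sequencing depth and the spread between replicates cannot be read from the authors' deposited table, so each fold is given with the q-value of the authors' Cuffdiff test, and a gene is called where q was at or below 0.05. The smallest q in the table, 0.000463, is a floor shared by many genes and does not rank them. Both targeted genes had too few reads for a test: NAC25 (NAC025, AT1G61110) was listed at a log2 fold of -3.97 in nac25, and the gene taken here as NAC1L (AT3G12977) at -4.61 in nac1L, in the authors' deposited table. As a check of the tissue label, 9 genes of seed storage proteins and oleosins were looked up, and 4 of them had so many reads that Cuffdiff made no test against WT. The median log2 fold of tested genes was -0.07 in nac1L and -0.27 in nac25 against WT and -0.20 between the mutants. Folds relative to this shift are called centred below. Centring moved the calls over all tested genes from 18.9% lower and 9.62% higher to 15.2% and 12.4% in nac1L, and from 32.8% and 6.25% to 14.8% and 15.8% in nac25. RNA came from whole seeds, so fewer cells of a type and less RNA per cell cannot be told apart.

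The names hide 3 kinds of protein, which the domain notes of the RefSeq annotation of TAIR10.1 separate for all 66 genes. An inhibitor-like region and a catalytic domain together were annotated for 44 genes, with a median of 569.5 codons. A catalytic domain alone was annotated for 19 genes, with a median of 344 codons, and an inhibitor domain alone for 3 genes of 173 to 206 codons. The latter were PMEI1, PMEI2 and AT4G12390, which the authors' deposited table calls PME1 although RefSeq describes it as an inhibitor. The name PME1 is also borne by AT1G53840, an enzyme with both domains, and identifiers are therefore given for both.

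Only 23 of the 66 genes had a test in at least 1 comparison, 21 of them in all 3. The enzymes with both domains supplied 19 of these, out of 44, whereas 2 of the 19 enzymes with a catalytic domain alone were tested. The log2 fold was exactly 0 in all 3 comparisons for 26 genes, without a test. Among them were VGD1 and VGDH1 (PME5 and PME4 in the table), which are known from pollen tubes, and PME24, known from root hairs. Whether such a gene had no reads or equal values in the genotypes cannot be read from the deposited table. A further 12 genes had an infinite fold, because a genotype was listed at 0, and 5 had finite folds but too few reads for a test. Counts and medians given below cover the tested genes and not the whole family.

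**Figure D1:**
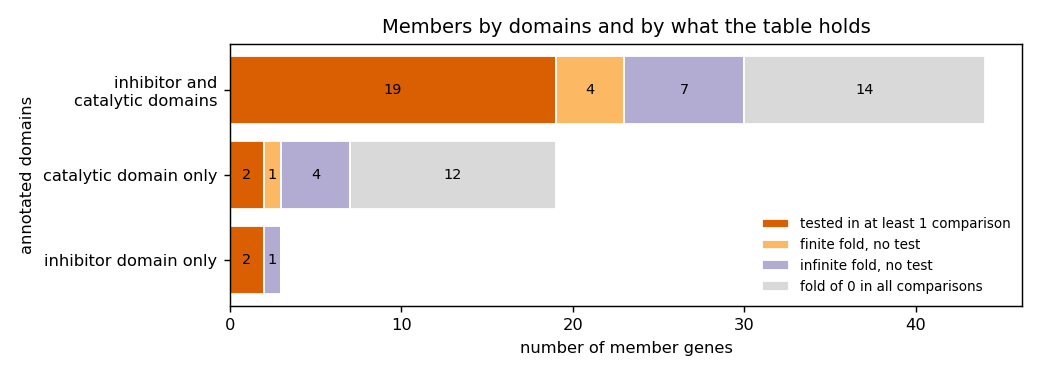
Number of member genes (horizontal axis) by annotated domains (vertical axis), divided by what the authors' deposited table holds for them. Of the 44 genes with both domains 19 had a test, against 2 of the 19 with a catalytic domain alone.

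In both mutants a set of pectin methylesterases with an inhibitor-like region was lower, by up to 6.24-fold in nac1L and 20.3-fold in nac25, while PME32 was higher in both. In nac1L 9 of 23 tested members were lower and 2 higher, or 39.1% and 8.70%, where 18.9% of all tested genes were lower, 9.62% higher and 28.5% either. In nac25 10 of 22 were lower and 1 higher, or 45.5% and 4.55%, where 32.8% of all tested genes were lower, 6.25% higher and 39% either. With a 2-fold minimum 7 members were lower in nac1L, where 6.2% of all tested genes were, and 8 in nac25, where 11.1% were. With that minimum 1 member was higher in each mutant, PME32, where 0.861% of all tested genes were in nac1L and 0.683% in nac25. After centring 8 members were lower and 2 higher in nac1L (15.2% and 12.4% of all tested genes), and 9 and 2 in nac25 (14.8% and 15.8%). The median log2 fold over the tested members was -0.22 in nac1L and -0.41 in nac25, where that over all tested genes was -0.07 and -0.27. Both mutants were set against the same WT libraries, so the values in one are no independent repeat of those in the other.

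PME41 (AT4G02330), an enzyme with both domains known from responses to chilling, had the lowest fold among the tested members in both mutants. Its fold in the authors' deposited table was 6.24 downward in nac1L, a log2 fold of -2.64, and 20.3 downward in nac25, a log2 fold of -4.35, both at the floor of q (0.000463). Only 50 tested genes with a finite fold had a lower value in nac25, PME41 standing at rank 51 of 18085. PME3 (AT3G14310), a widely expressed enzyme known from adventitious rooting and as a partner of a nematode protein, had log2 folds of -2.43 in nac1L and -3.09 in nac25 in the authors' deposited table, or decreases of 5.39-fold and 8.52-fold, both with q = 0.000463. PME44 (AT4G33220), an enzyme of the same architecture, was 4.35-fold lower in nac1L (log2 -2.12) and 7.36-fold lower in nac25 (log2 -2.88), with q = 0.000463 for both in the authors' deposited table. For these 3 enzymes the value was lower in nac25 than in nac1L. That difference was tested for PME3 and PME44, as given with the direct comparison of the mutants, and had no test for PME41.

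Among the other enzymes with both domains, PME18 and PME12 fell by similar amounts in the mutants. PME18 (AT1G11580, also called PMEPCRA) stood at log2 -1.93 in nac1L and at -2.32 in nac25, and PME12 (AT2G26440) at -1.96 and -2.01, all with q = 0.000463 in the authors' deposited table. PME7 (AT1G02810) was 2.07-fold lower in nac1L and 2.05-fold lower in nac25 (log2 -1.05 and -1.04, q = 0.000463 for both, authors' deposited table). PME7 was thus the member with the most equal decrease in the mutants, their direct comparison giving log2 0.01 (q = 0.972, authors' deposited table). PME25 (AT3G10720) was lower by a log2 fold of -0.96 in nac1L (q = 0.00729) and of -2.38 in nac25 (q = 0.000463) in the authors' deposited table.

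The smallest decreases depended on the scaling. PME51 (AT5G09760) stood at log2 -0.43 in nac1L (q = 0.0258) and at -0.74 in nac25 (q = 0.000463) in the authors' deposited table, and the call in nac1L was lost after centring (q = 0.0774). PME64 (AT5G64640) was called in nac25 (log2 -0.58, q = 0.0223) and missed the threshold in nac1L (log2 -0.43, q = 0.0826) in the authors' deposited table, and its call in nac25 was lost after centring (q = 0.306). The log2 folds that passed in either mutant thus spanned -0.43 to -4.35 among the lowered members.

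A pair of enzymes with both domains was higher. PME32 (AT3G43270) was 2.08-fold higher in nac1L (log2 1.06, q = 0.00876) and 2.93-fold higher in nac25 (log2 1.55, q = 0.000463) in the authors' deposited table. It stood at rank 40 from the top of the 18085 tested genes with a finite fold in nac25, where higher calls were few. The enzyme PME1 at AT1G53840 was 1.40-fold higher in nac1L (log2 0.49, q = 0.0347) and had a log2 fold of 0.17 in nac25 (q = 0.553) in the authors' deposited table. The direct comparison of the mutants did not separate these values of AT1G53840 (log2 -0.32, q = 0.141).

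**Figure D2:**
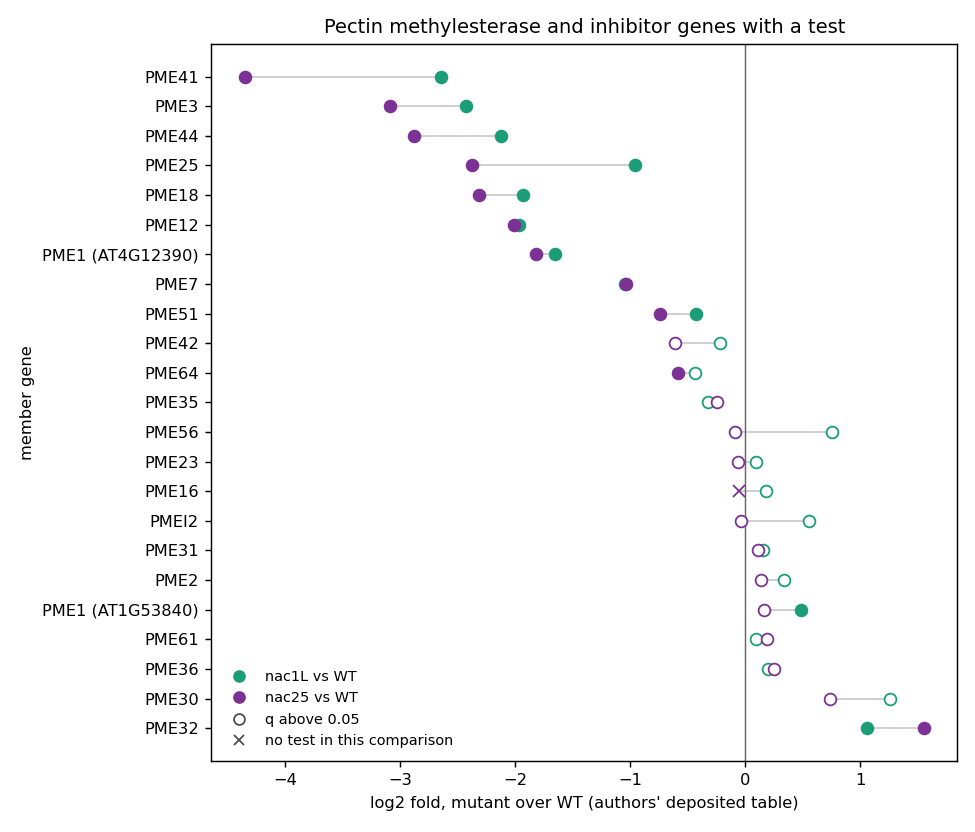
Log2 fold of mutant over WT (horizontal axis) for the 23 member genes with a test, 1 row per gene, with nac1L and nac25 in 2 colours; filled points passed q at or below 0.05 and a cross marks a value without a test. PME41 lies at -2.64 and -4.35 at the low end, PME32 at 1.06 and 1.55 at the high end.

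No call was made in any of the 3 comparisons for 10 tested members. Their log2 folds ranged from -0.32 to 1.26 in nac1L, with no q below 0.128, and from -0.61 to 0.74 in nac25, with no q below 0.383, in the authors' deposited table. PME35 (AT3G59010), an enzyme known from the stem wall, was among them with log2 folds of -0.32 and -0.24 (q = 0.54 and 0.649, authors' deposited table). The member at the upper end, PME30 (AT3G27980), had log2 1.26 in nac1L with q = 0.128 in the authors' deposited table, so a fold of more than 2 did not pass there. A missed threshold does not show that these genes were equal between genotypes, since the precision of each fold is not given.

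The enzymes with a catalytic domain alone gave no call against WT in the authors' Cuffdiff test, where 1 of the 2 tested passed an unadjusted p below 0.05 in nac1L and none in nac25. PME31 (AT3G29090), known from salt tolerance, had log2 folds of 0.16 in nac1L and 0.11 in nac25 (q = 0.352 and 0.539) in the authors' deposited table. After centring PME31 passed as higher in nac25 (centred log2 0.38, q = 0.0147). PME56 (AT1G11370) had log2 folds of 0.76 in nac1L (q = 0.067) and -0.09 in nac25 (q = 0.873) in the authors' deposited table. PME53 (AT5G19730), an enzyme of this kind known from cell growth in the embryo, had too few reads for a test, with log2 folds of -0.05 and -0.20 in the authors' deposited table.

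**Figure D3:**
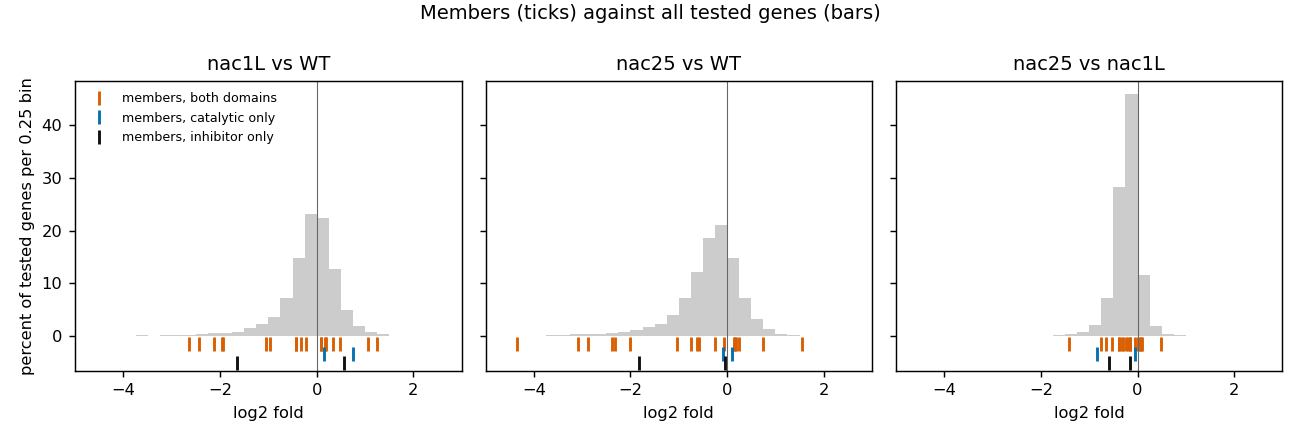
Percent of all tested genes per bin of 0.25 in log2 fold (bars) in the 3 comparisons, with the tested members as ticks below, coloured by annotated domains. Members with both domains extend from the centre of the distribution to -4.35 in nac25 against WT, and in the comparison of the mutants they lie between -1.42 and 0.49.

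Of the inhibitors, AT4G12390 fell in both mutants and PMEI2 was not called. AT4G12390, named PME1, was 3.15-fold lower in nac1L (log2 -1.66) and 3.53-fold lower in nac25 (log2 -1.82), with q = 0.000463 for both in the authors' deposited table. It overlaps HOP3, a gene of a heat shock co-chaperone, on the opposite strand, and HOP3 was higher in both mutants (log2 0.78 and 1.24, q = 0.000463, authors' deposited table). The libraries were stranded, but use of the strand in counting is not given in the sources used here. PMEI2 (AT3G17220), an inhibitor known from pollen, had log2 folds of 0.56 in nac1L (q = 0.426) and -0.03 in nac25 (q = 0.969) in the authors' deposited table. PMEI1 (AT1G48020), also known from pollen, had no test and was listed at 0 in both mutants and above 0 in WT.

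Most genes of the inhibitor family bear no PMEI name in the table, and those with the same domain were therefore set beside the named ones. The table holds 76 further genes with an inhibitor domain and no catalytic domain, of which 14 were tested. Of these, 5 were lower and 2 higher in nac1L, or 35.7% and 14.3%, where 18.9% and 9.62% of all tested genes were. In nac25 5 were lower and 1 higher, or 35.7% and 7.14%, close to the 32.8% and 6.25% of all tested genes. The family also holds inhibitors of invertase, so that the domain alone does not show which enzyme a protein acts on. The lowest folds were those of AT5G20740 (log2 -2.09 in nac1L and -3.32 in nac25) and AT4G25260 (log2 -2.14 and -2.83), all with q = 0.000463 in the authors' deposited table. AT5G62350 followed with log2 -1.16 and -1.46 (q = 0.000463 for both, authors' deposited table). The other lowered genes were AT1G14890 (log2 -0.66 with q = 0.0316, and -1.17 with q = 0.000463) and the invertase inhibitor gene C/VIF1 (log2 -0.71 and -1.12, q = 0.000463 for both) in the authors' deposited table. Higher calls were AT3G17225 (log2 1.53, q = 0.00625) and AT1G62770 (log2 1.12, q = 0.00159) in nac1L, and AT1G70720 (log2 0.80, q = 0.0434) in nac25, in the authors' deposited table. After centring 4 of the 14 were lower and 2 higher in nac1L, where 15.2% and 12.4% of all tested genes were. In nac25 5 of the 14 were then lower and 4 higher, where 14.8% and 15.8% of all tested genes were. AT2G47670 was not called (log2 0.45 and 0.12, q = 0.112 and 0.733, authors' deposited table), and AT2G31430, PMEI5 in RefSeq, had a log2 fold of 0 in all comparisons. The inhibitor genes outside the member list were named after their values were seen.

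**Figure D4:**
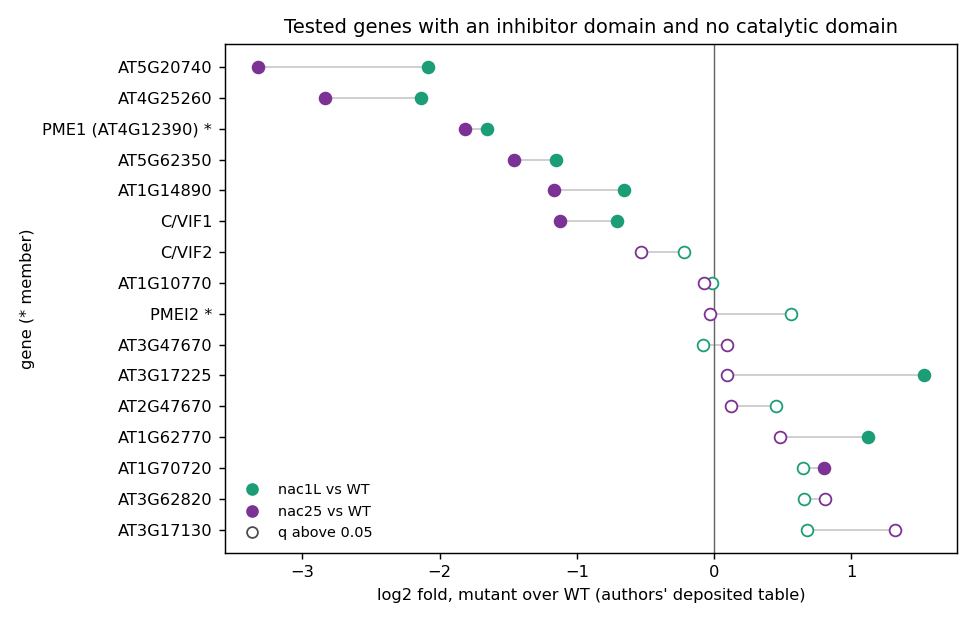
Log2 fold of mutant over WT (horizontal axis) for the 16 tested genes with an inhibitor domain and no catalytic domain, 1 row per gene, with members starred and filled points at q at or below 0.05. AT4G25260 lies lowest in nac1L at -2.14 and AT5G20740 in nac25 at -3.32, and AT3G17225 is higher at 1.53 in nac1L.

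In the direct comparison of the mutants some of these differences were called as unequal, and a missing call does not show that the others were equal. Among 22 tested members 4 were lower in nac25 than in nac1L (18.2%, where 11.7% of all tested genes were lower) and none was higher (0.609% of all tested genes) in the authors' Cuffdiff test, 1 being higher at an unadjusted p below 0.05. PME25 differed most, 2.67-fold (log2 -1.42, q = 0.00226), followed by PME56 (log2 -0.85, q = 0.0214), PME44 (log2 -0.76, q = 0.0177) and PME3 (log2 -0.66, q = 0.000866) in the authors' deposited table. PME56 was called in neither mutant against WT, and its values there lay on opposite sides of 0 as deposited but both above 0 after centring (log2 0.82 in nac1L and 0.18 in nac25). PME25 alone passed a 2-fold minimum, where 0.941% of all tested genes were lower and 0.0733% higher. Either direction was called for 12.3% of all tested genes. The median over members was -0.22 and that over all tested genes -0.20. Among the 14 further genes with an inhibitor domain 6 (42.9%) were lower and 0 higher in the authors' Cuffdiff test (0 higher also at an unadjusted p below 0.05). After centring 2 of the 14 were lower, where 1.56% of all tested genes were. The comparison shares its libraries with those against WT and adds no replicate.

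The comparison between mutants was sensitive to scaling and to adjustment. After centring, 276 genes of the whole table (1.56% of those tested) were lower and 482 (2.72%) higher in nac25 than in nac1L, in place of 2078 and 108. PME25 (q = 0.014) and PME3 (q = 0.036) passed after centring as well, whereas PME44 (q = 0.115) and PME56 (q = 0.11) did not, and PME32 passed as higher in nac25 (centred log2 0.69, q = 0.0289). When p-values were adjusted within this comparison alone, PME44 (q = 0.0562) and PME56 (q = 0.0633) again missed the threshold. PME41 had log2 -1.70 between the mutants in the authors' deposited table but too few reads for a test there, so the lower value in nac25 was not tested.

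The annotation placed 27 members in 14 pairs of neighbouring protein-coding genes. In 7 pairs neither gene was tested. Only in 1 pair were both genes tested: AT1G53840 (PME1), higher in nac1L, and its neighbour PME2 (AT1G53830), with log2 folds of 0.34 in nac1L and 0.14 in nac25 (q = 0.207 and 0.67) in the authors' deposited table. In 6 pairs a single gene was tested, and these were PME3, PME12, PME18, PME25, PME41 and PME44, all of them lowered. Their partners had too few reads for a test. Of all tested members 39.1% were lower in nac1L and 45.5% in nac25, where 18.9% and 32.8% of all tested genes were. A link between position in a pair and the calls was not tested. PME13, beside PME12, had log2 folds of -2.59 in nac1L and -3.83 in nac25, and PME19, beside PME18, of 1.61 and 1.72, without a test in the authors' deposited table. PME24 and PME40, beside PME25 and PME41, had a log2 fold of 0 in all comparisons. PME45, beside PME44, was listed at 0 in both mutants and above 0 in WT, and PME26, beside PME3, was listed above 0 in nac1L alone.

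Reads of similar genes could be assigned to the wrong member, and the overlap of sequence was therefore counted. For 20 of the 23 tested members under 1% of the 31-base words of their transcripts occurred in transcripts of another gene of TAIR10.1. The exceptions were PME30 with 38.8%, PME42 with 23.4% and PME18 with 5.05%. PME30 and PME42 were not called in any comparison, and their folds are uncertain on this ground too. PME30 shared most with PME19, whose log2 fold was also above 0 in both mutants but had no test. PME44 and PME45 overlap on opposite strands.

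Among members listed at 0 in a genotype, none had a test. PME6, PME8, PME22, PME45, PME50 and PMEI1 were listed at 0 in both mutants and above 0 in WT. PME10 and PME59 were listed at 0 in WT alone, PME17, PME26 and PME66 were above 0 in nac1L alone, and PME20 was at 0 in nac25 alone. PME58 (AT5G49180), known from seed coat mucilage, had log2 folds of 1.05 in nac1L and 1.11 in nac25 without a test in the authors' deposited table.

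Calls among galacturonosyltransferase genes were near the share over all tested genes, and 3 of 4 tested pectin methylation genes were lower in nac25, a call that none of them kept after centring. Of 13 tested galacturonosyltransferase genes, which build the polymer, 2 were lower in nac1L (15.4%, where 18.9% of all tested genes were) and 5 in nac25 (38.5%, where 32.8% were), and none was higher in the authors' Cuffdiff test (1 in each mutant at an unadjusted p below 0.05). GAUT5 (log2 -0.98 in nac1L and -1.57 in nac25, q = 0.000463 for both) and GAUT7 (log2 -0.49 with q = 0.00321, and -0.71 with q = 0.000463) changed most, by the authors' deposited table. After centring 2 of the 13 were lower and 1 higher in nac1L, where 15.2% and 12.4% of all tested genes were. In nac25 1 of the 13 was then lower and 1 higher, where 14.8% and 15.8% of all tested genes were. Of 4 genes of pectin methylation 1 (25.0%) was lower in nac1L, QUA2 (log2 -0.34, q = 0.0236), and 3 (75.0%) were lower in nac25, led by AT3G49720 (log2 -0.73, q = 0.00159) and AT5G65810 (log2 -0.64, q = 0.017), in the authors' deposited table. After centring none of the 4 passed in either mutant. For QUA2 in nac25 (log2 -0.47, q = 0.000463, authors' deposited table) the p-value was at its floor, which makes the error implied for centring too large.

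The 4 genes looked up for proteins linked to the processing or removal of pectin methylesterases were not called against WT. None of the 4 genes, the subtilases SBT1.7 and SBT6.1 and the ubiquitin ligases at AT4G28370 and AT2G20650, passed in either mutant in the authors' Cuffdiff test, also at an unadjusted p below 0.05. Their log2 folds ran from -0.41 to 0.25 in nac1L and from -0.40 to 0.11 in nac25 in the authors' deposited table, and after centring SBT6.1 passed as higher in nac25 (q = 0.0259). SBT1.7, known from seed coat mucilage, was lower in nac25 when the mutants were compared (log2 -0.37, q = 0.037, authors' deposited table), but not after centring (q = 0.452).

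Among polygalacturonase-like genes, 8 of 27 tested were lower in nac1L (29.6%, where 18.9% of all tested genes were) and 11 of 28 in nac25 (39.3%, where 32.8% were). None was higher in the authors' Cuffdiff test, with 1 at an unadjusted p below 0.05 in nac1L and 0 in nac25. AT3G15720 (log2 -3.93 in nac1L and -4.73 in nac25), the pectate lyase gene PMR6 (log2 -2.22 in nac1L) and AT4G13710 (log2 -2.65 in nac25) changed most, all with q = 0.000463 in the authors' deposited table. After centring 7 were lower in nac1L, where 15.2% of all tested genes were. In nac25 5 were then lower and 3 higher, where 14.8% and 15.8% of all tested genes were. This list was drawn from product names that also cover other pectin lyase-like folds, such as the pectate lyase PMR6. Its counts are therefore not of polygalacturonases alone. Members were left out, but 3 unnamed relatives with the catalytic domain of pectin methylesterases stayed in it (PPME1, QRT1 and AT3G42160). Of these PPME1 alone was tested, without a call in nac25 against nac1L (log2 0.37, q = 0.528) or in nac25 against WT (log2 0.43, q = 0.481, authors' deposited table). The 6 genes whose product is worded as pectate lyase, 7 polygalacturonases listed by name and 5 wall-associated kinases had no test in any comparison. The 6 do not cover pectate lyase genes with another product wording, such as PMR6, which was tested. PGIP1, an inhibitor of polygalacturonases of plant pathogens, was higher in nac1L (log2 0.86, q = 0.000463) and in nac25 (log2 0.35, q = 0.0467) in the authors' deposited table, and PGIP2 was not called.

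Pectin acetylesterases, which remove acetyl groups from pectin, were lower for 2 of 7 tested genes in nac1L (28.6%, where 18.9% of all tested genes were) and 5 of 7 in nac25 (71.4%, where 32.8% were). PAE12 had log2 folds of -1.95 in nac1L and -2.55 in nac25 (q = 0.000463 for both) in the authors' deposited table. PAE11 (log2 -0.61 in nac1L, q = 0.00381) and PAE8 (log2 -1.69 in nac25, q = 0.00321) were the other genes named by size in the authors' deposited table. After centring 2 were lower in nac1L and 3 in nac25, where 15.2% and 14.8% of all tested genes were. None was higher in the authors' Cuffdiff test, with 0 at an unadjusted p below 0.05.

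**Figure D5:**
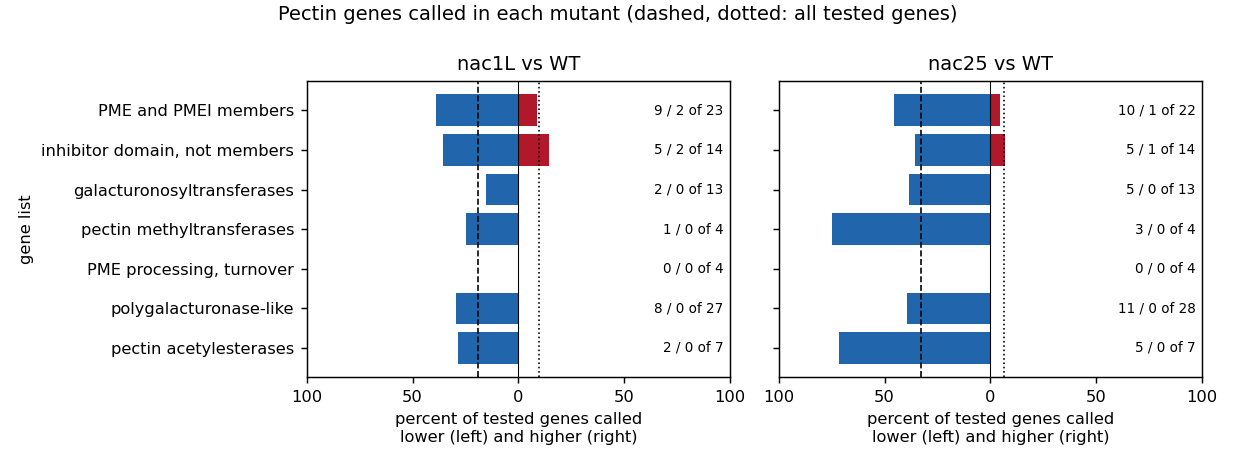
Percent of tested genes called lower (bars to the left) and higher (bars to the right) in each mutant for the members and for other pectin genes, with the numbers lower, higher and tested at the right of each panel. Dashed and dotted lines mark the shares of all tested genes called lower (18.9% in nac1L and 32.8% in nac25) and higher (9.62% and 6.25%).

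Endosperm markers and most embryo markers were lower beside the lowered esterases, and seed coat markers were not called. These lists were written with earlier results of these data known. Whether the markers follow the amount of their tissue in these mutants was not tested. Of 3 endosperm markers 2 had a test. EXPA2 (log2 -4.21 in nac1L and -4.88 in nac25) and MAN7 (log2 -1.73 and -2.06) were lower in both mutants, with q = 0.000463 in the authors' deposited table. Lower calls covered 18.9% of all tested genes in nac1L and 32.8% in nac25. The third endosperm marker, EPR1, had too many reads for a test. Of 6 embryo markers 4 were lower in each mutant (66.7%, where 18.9% of all tested genes were in nac1L and 32.8% in nac25), with SHR (log2 -2.78 and -3.06) and LTP1 (log2 -1.95 and -3.25) lowest, all with q = 0.000463 in the authors' deposited table. The embryo markers ATML1 (log2 -0.11 in both mutants) and SCR (log2 -0.15 and -0.18) were not called in the authors' deposited table. Of 6 seed coat markers 2 were tested and neither was called in the authors' Cuffdiff test, also at an unadjusted p below 0.05, though LUH passed as higher in nac25 after centring (q = 0.0246). Of the embryo markers PDF1 was no longer called in nac25 after centring (q = 0.249). The storage genes were called in both directions. Among 5 tested in nac1L 2 were lower (40%) and 1 higher (20%), where 18.9% and 9.62% of all tested genes were. Among 5 tested in nac25 1 was lower (20%) and 3 higher (60%), where 32.8% and 6.25% of all tested genes were. The part of tissue proportions, or of a difference in the stage reached at 12 h, in the values of the esterases was not tested.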

How the data were processed

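The 9 libraries kept strand information, per the labels' protocols. The submitters' processing notes name TopHat2 (2.1.0), Cuffdiff (2.2.1.3) and FastQC (0.11.5). Not given in the sources used here were the genome build, the annotation and the normalization. Per gene and pair of genotypes the authors deposited a log2 fold, a p-value and a q-value, with the second genotype taken as numerator. The value inf (2222 cells) and a spreadsheet error (3122, read as minus infinity) were taken as a genotype listed at 0. The design provided for tests on libraries, and for the authors' q at or below 0.05 where no such values exist, which applied. The deposited q equals a Benjamini-Hochberg adjustment over all 54131 tests, within 5.27e-07.

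Computed here were counts, medians, ranks, folds centred on the median of tested genes (standard error implied by fold and p, then adjusted over all tests, checked on simulated data that had no p floor; the floor of 5e-05 makes the implied error too large) and shared 31-base words. Python 3.11.15, numpy 2.4.6, pandas 2.3.3, scipy 1.17.1 and matplotlib 3.10.9 were used. All 66 members matched the TAIR10.1 annotation, which gave domains and products; no coordinates are given. Members were chosen by name, and the 13 gene lists were written with earlier results of these data known. Named were all called members, uncalled ones of known wall or seed role, and up to 2 called genes per list and mutant; others are named by status or after their values were seen. Alternatives were a q of 0.01, adjustment within a comparison, centring, a 2-fold minimum and other definitions of membership.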

Additional observations from a re-analysis of the deposited data

Results flagged for a closer look

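The effects of the mutants against WT differed from each other, by the authors' direct comparison of nac25 with nac1L, for 4 members. In the authors' deposited table the log2 fold of nac25 over nac1L was -1.42 for PME25, -0.85 for PME56, -0.76 for PME44 and -0.66 for PME3. After centring PME25 (q = 0.014) and PME3 (q = 0.036) passed, and PME56 (q = 0.11) and PME44 (q = 0.115) did not. Nor did PME56 (q = 0.0633) and PME44 (q = 0.0562) pass when adjusted within the comparison. For inhibitor-domain genes outside the member list it was -1.43 for AT3G17225, -1.24 for AT5G20740, -0.69 for AT4G25260, -0.64 for AT1G62770, -0.41 for C/VIF1 and -0.31 for AT5G62350 in the authors' deposited table. Of these, after centring, AT3G17225 (q = 0.0266) and AT4G25260 (q = 0.0415) passed, and AT5G20740 (q = 0.0557), AT1G62770 (q = 0.211), C/VIF1 (q = 0.38) and AT5G62350 (q = 0.63) did not.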

How the results depend on the processing

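The counts of PME-named genes lower against WT (9 in nac1L and 10 in nac25) stayed within 1.5 times under every alternative run. In nac1L 2 PME-named genes were higher, and 1 with a q at or below 0.01 or with a 2-fold minimum. In nac25 1 was higher, and 2 after centring. Between the mutants 4 were lower, with 2 at a q of 0.01, 2 when adjusted within the comparison, 2 after centring and 1 with a 2-fold minimum, and 0 were higher, with 1 after centring. No gene named PMEI was called in the authors' Cuffdiff comparisons (0 also at an unadjusted p below 0.05). Of the 2 genes so named PMEI2 alone was tested. When membership followed the RefSeq product, 5 inhibitor genes were lower and 2 higher in nac1L, 5 lower and 1 higher in nac25, and 5 lower in nac25 than in nac1L. When membership followed the annotated domains, chosen after seeing the data, these were 6 and 2, 6 and 1, and 6, since AT4G12390 and unnamed genes are then counted. By domain 16 genes were tested, of which 37.5% were lower in each of the 3 comparisons, and 12.5% higher in nac1L and 6.25% in nac25. Among all tested genes 18.9% were lower and 9.62% higher in nac1L, and 32.8% and 6.25% in nac25. Between the mutants 11.7% of all tested genes were lower in nac25. Among called members, centring ended the calls of PME51 in nac1L, PME64 in nac25, and PME44 and PME56 between mutants, and it turned the sign of no called value. Uncalled values between -0.24 and 0 did turn above 0, those of PME23, PME35, PME56 and PMEI2 in nac25 against WT and of PME2, PME12, PME23, PME31, PME64 and AT4G12390 between the mutants. No paired analysis was possible because the table holds no value per library, and for the same reason no replicate could be left out. Genes with few reads, 43 of 66 members in all comparisons, are beyond what the table can show.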
